A study of Mus musculus with 12 samples.

Results

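The genes described here are the 10 core regulators of the G1 phase that the gene count matrix holds by name: the D-type cyclins Ccnd1, Ccnd2 and Ccnd3, their kinases Cdk4 and Cdk6, the p27 inhibitor gene Cdkn1b, and the INK4 inhibitor genes Cdkn2a, Cdkn2b, Cdkn2c and Cdkn2d. They were picked out of the matrix by symbol, and all 10 were among the 24453 genes in the table and passed the filter on low counts. Expression was measured by strand-specific, rRNA-depleted RNA-Seq in 4 lines of mouse embryonic fibroblasts (MEFs), with 3 cultures per line and 12 libraries in all. TM6 is the parental line, made from C57BL6/J cells with loxP-flanked Pnpt1 alleles (Pnpt1 fl/fl, neo-flox/neo-flox in the labels) and immortalised with SV40 large T-antigen. The rho0 line was derived from TM6 with ditercalinium at 750 ng/mL for 3 weeks, which removes mitochondrial DNA, and was grown from 1 colony of a single cell. The PNPase knockout lines, PKO-1 and PKO-6, were each made from TM6 with a Cre-expressing adenovirus and likewise grown from a single cell. Pnpt1 encodes PNPase, a mitochondrial exoribonuclease. The study reported that the PKO clones, like rho0, had no detectable mitochondrial DNA and did not respire. Large T-antigen, the loxP-flanked starting alleles and a uridine supplement of 50 µg/mL were common to all 4 lines, TM6 included. Because rho0, PKO-1 and PKO-6 are each 1 clone, a difference between lines cannot be told apart from a difference between clones.

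The D-type cyclins bind CDK4 or CDK6, and the active complexes phosphorylate the retinoblastoma protein RB, which releases E2F transcription factors and lets the cell pass from G1 into S phase. The INK4 proteins bind CDK4 and CDK6 and keep the cyclin away, whereas p27 binds cyclin-CDK complexes and blocks CDK2 in particular. SV40 large T-antigen is known to bind RB and p53, which was not measured here.

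The libraries held 47164860 to 67991378 expected counts, with a median of 55405647, and the ribosomal RNA precursor Rn45s took 12.2% to 19.6% of them. Normalized counts of Pnpt1 were 2832 to 3320 in TM6, 5051 to 5509 in rho0, 1191 to 1276 in PKO-1 and 1720 to 2213 in PKO-6, so the 6 PKO libraries lay below the other 6. The gene total includes reads outside the deleted part of exon 2. Of 14 fibroblast markers, 12 passed the filter, and their summed level, in TPM (a length-corrected share of all transcripts), was 6998 to 7193 in TM6, 4102 to 4214 in rho0, 7338 to 7511 in PKO-1 and 3480 to 3834 in PKO-6. Thy1 and Fap did not pass the filter. Lum was at 0 in rho0, and Thy1 was at 0 in PKO-6. Summed markers of other cell types reached at most 20.1 TPM for epithelium (Krt5 at 0 in all lines), 1 TPM for endothelium, 6.04 TPM for leukocytes (Adgre1 and Cd3e at 0 in all lines), 0.56 TPM for skeletal muscle (Myog and Myf5 at 0 in all lines) and 34.0 TPM for neurons. In bulk RNA, fewer cells of a type and less RNA per cell cannot be told apart.

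To determine how the G1 genes differed between lines, each line was compared with the others by edgeR's quasi-likelihood test over 14026 genes, and a gene was called where its adjusted p was under 0.01 and its log2 fold change exceeded 0.5 in size. In rho0 against TM6, Ccnd2 rose and Ccnd3, Cdk6, Cdkn2c and Cdkn2d fell. These were 1 of 10 genes higher, where 20.7% of all tested genes were called higher, and 4 of 10 lower, where 21.4% were called lower. In PKO-1 against TM6, Ccnd1, Ccnd2 and Cdkn1b rose and Cdkn2b fell, so that 3 of 10 were higher, beside 16.4% of all genes, and 1 of 10 was lower, beside 17.9%. In PKO-6 against TM6, Ccnd1 and Ccnd2 rose and Ccnd3, Cdkn2a, Cdkn2b, Cdkn2c and Cdkn2d fell, which made 2 of 10 higher, beside 21.9% of all genes, and 5 of 10 lower, beside 19.4%. The median log2 fold change of the 10 genes was -0.46 in rho0, -0.0088 in PKO-1 and -0.42 in PKO-6, and that of all tested genes was 0.018, 0.00086 and 0.014. These comparisons share the TM6 libraries.

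**Figure D1:**
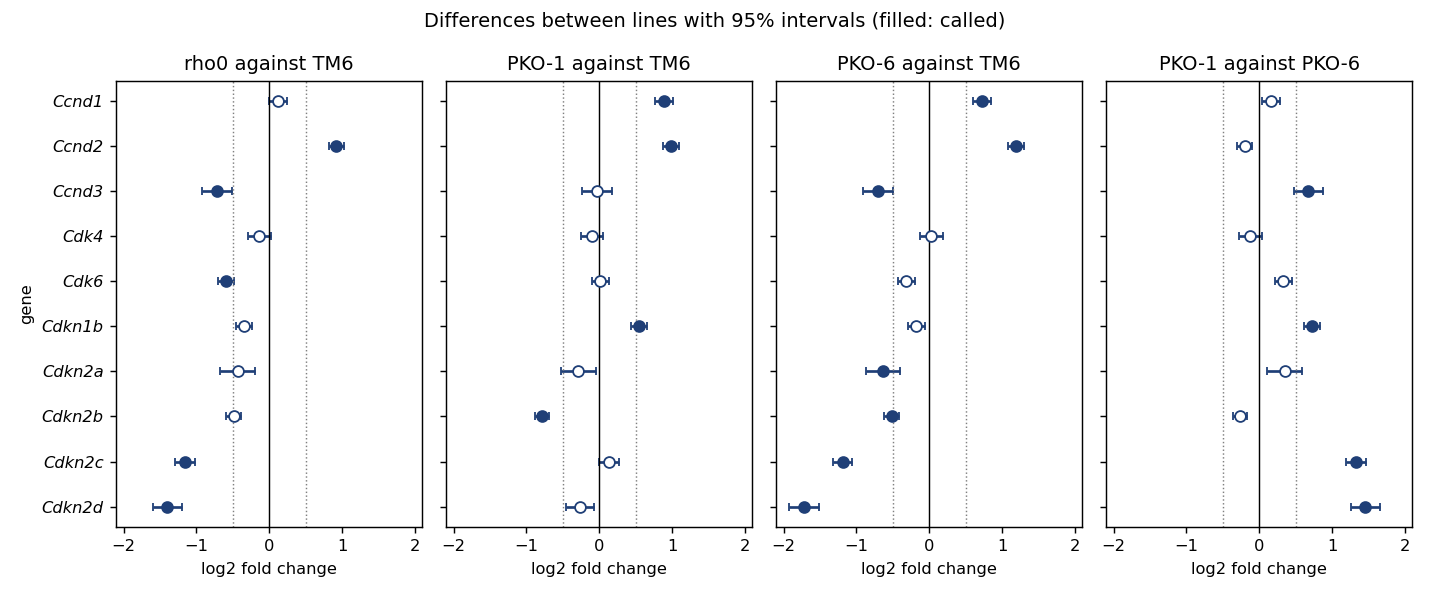
Log2 fold change of each of the 10 genes (x axis, points with 95% intervals from the standard error) in 4 comparisons (panels), with dotted lines at the size threshold of 0.5 and filled points for genes that were called. Ccnd2 lies to the right of the upper threshold in all 3 comparisons with TM6, while Cdkn2c and Cdkn2d lie far to the left in rho0 and PKO-6, at -1.15 to -1.72. In PKO-1 against TM6, Cdkn2c lies at 0.13 and Cdkn2d at -0.27, both between the dotted lines.

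Among the D-type cyclins, Ccnd2 was higher than in TM6 in every other line, Ccnd1 was higher in both PKO clones, and Ccnd3 was lower in rho0 and PKO-6. Cyclin D1 is the D cyclin most tied to growth factor signalling. Ccnd1 (chr7:144929931-144939925, mm10, minus strand) had normalized counts of 12764, 13254 and 13408 in TM6 and of 15193, 13519 and 14257 in rho0. They reached 24567, 24692 and 23709 in PKO-1 and 20968, 23647 and 20561 in PKO-6. All 6 PKO libraries were above all 6 libraries of TM6 and rho0. Ccnd1 rose by 0.89 ± 0.064 (log2, SE) in PKO-1 (adjusted p = 3.7e-08) and by 0.73 ± 0.064 in PKO-6 (adjusted p = 1.9e-07), or 1.85-fold and 1.65-fold. The difference between rho0 and TM6 was 0.12 ± 0.063 (adjusted p = 0.094), and that between the PKO clones was 0.16 ± 0.063 (adjusted p = 0.038), so the only step in the order PKO-1, PKO-6, rho0, TM6 that was called was the one between PKO-6 and rho0, at 0.60 ± 0.063 (adjusted p = 3.5e-06).

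Ccnd2 (chr6:127125709-127151048, minus strand), which encodes cyclin D2, had the lowest normalized counts in TM6, with 11764, 12397 and 12780. In rho0 the counts were 24389, 22448 and 23075, in PKO-1 they were 24482, 24925 and 23807, and in PKO-6 they were 27882, 28976 and 27436. No library of the 3 derived lines came near the TM6 range. The log2 increase was 0.92 ± 0.054 in rho0 (adjusted p = 3.8e-09), 0.99 ± 0.055 in PKO-1 (adjusted p = 2.6e-09) and 1.19 ± 0.055 in PKO-6 (adjusted p = 2.3e-10). PKO-6 exceeded PKO-1 by 0.20 ± 0.054 (adjusted p = 0.0049), which was below the size threshold, and PKO-1 and rho0 overlapped, with a difference of 0.07 and a 95% interval of -0.039 to 0.17. The non-coding gene 9330179D12Rik overlaps Ccnd2 and had at most 20.2 normalized counts.

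Ccnd3 (chr17:47505051-47599688, plus strand), which encodes cyclin D3, split the lines another way. Its normalized counts were 7569.7, 7286 and 6962 in TM6 and 7065, 7234 and 7051 in PKO-1, which overlapped. They were 5117, 4057 and 4092 in rho0 and 4481, 5158 and 3759 in PKO-6, all below the lowest library of the other pair of lines. Ccnd3 fell by 0.72 ± 0.10 in rho0 (adjusted p = 3.0e-05) and by 0.70 ± 0.10 in PKO-6 (adjusted p = 3.5e-05). The PKO-1 difference was -0.03 ± 0.10 (adjusted p = 0.81), and PKO-1 was 0.67 ± 0.10 above PKO-6 (adjusted p = 7.6e-05). One RefSeq transcript, NM_007632.2, held at least 98.66% of the gene in every library. The 3′ end of Ccnd3 overlaps Bysl, at 2537 to 3828 normalized counts, and whether reads were counted by strand is not given in the sources used here.

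**Figure D2:**
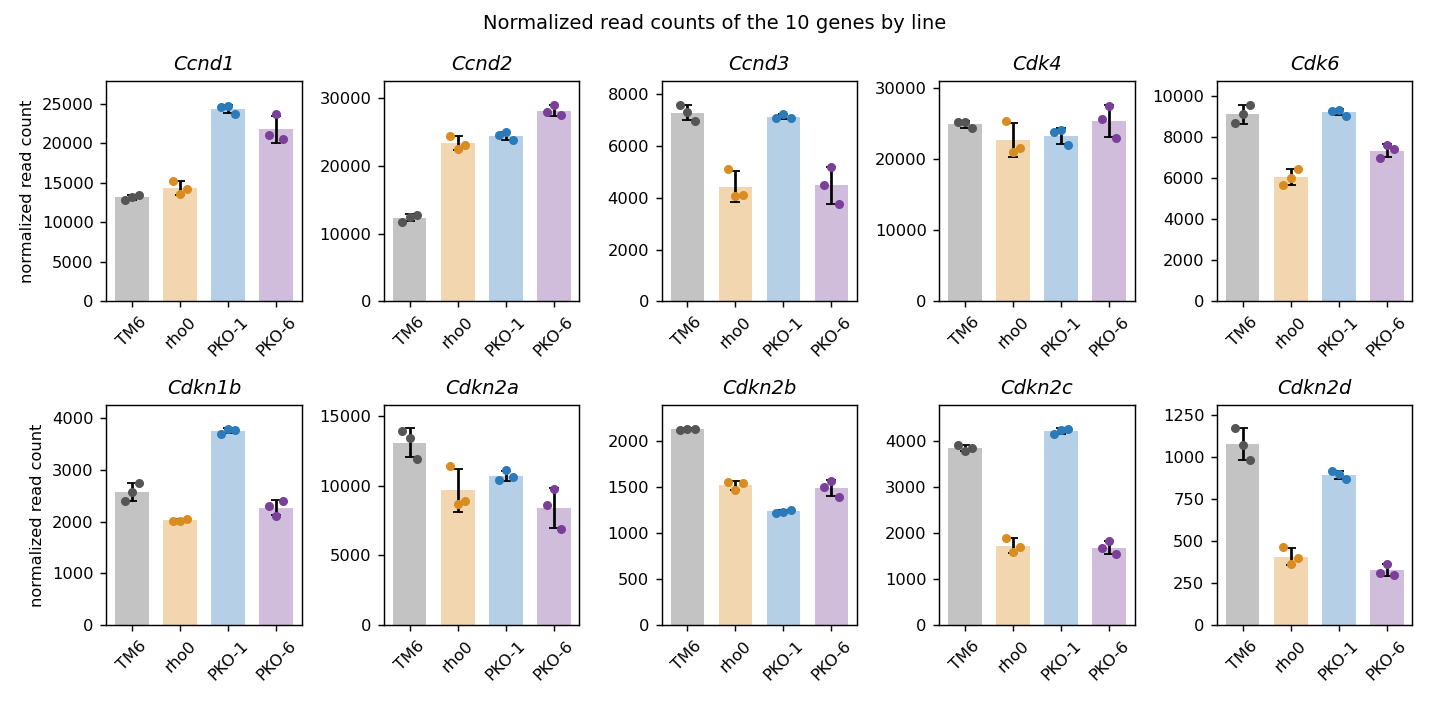
Normalized read counts (y axis, from 0) of the 10 genes in TM6, rho0, PKO-1 and PKO-6 (x axis); bars are means of 3 libraries, error bars the SD and points single libraries. Ccnd2 is lowest in TM6, and the Cdk4 means lie between 22633 (rho0) and 25387 (PKO-6). Cdkn2c and Cdkn2d are high in TM6 and PKO-1 and low in rho0 and PKO-6.

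Of the catalytic subunits, Cdk4 was not called in any comparison and Cdk6 was called in rho0 against TM6 and in PKO-1 against rho0. Cdk4 (chr10:127063603-127067282, plus strand) was called in 0 of 7 comparisons by edgeR and in 0 by DESeq2, and in 0 of them was its unadjusted p below 0.05, with a largest difference of 0.17 ± 0.080 between PKO-6 and rho0 (adjusted p = 0.097). Normalized counts of Cdk4 were 25236, 25163 and 24349 in TM6, 25354, 20934 and 21611 in rho0, 23747, 24025 and 21938 in PKO-1, and 25614, 27526 and 23020 in PKO-6. In these counts the lines overlapped except for TM6 and PKO-1. In TPM, Cdk4 was at 639.6 to 659.1 in TM6, above 567.3 to 595.2 in rho0 and 568.9 to 591.4 in PKO-1. PKO-6, at 624.6 to 652.6 TPM, overlapped TM6. Leaving out 1 library gave -0.24 to -0.11 in rho0 against TM6, with no call. At its lowest among the alternatives, the adjusted p of rho0 against TM6 was under 0.01, with the size below the threshold. The 95% intervals of the differences from TM6 were -0.30 to 0.019 in rho0, -0.26 to 0.057 in PKO-1 and -0.13 to 0.18 in PKO-6, so changes of more than 0.30 on the log2 scale lay outside them.

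Cdk6 (chr5:3343893-3531005, plus strand) fell in rho0. Its normalized counts were 8652, 9092 and 9563 in TM6, 5653, 6013 and 6426 in rho0, 9247, 9304 and 9017 in PKO-1, and 6981, 7603 and 7385 in PKO-6. The rho0 libraries were the lowest, PKO-6 lay between them and the others, and TM6 and PKO-1 overlapped. The decrease in rho0 was 0.59 ± 0.058 (adjusted p = 6.6e-07), and the PKO-6 difference of -0.31 ± 0.058 (adjusted p = 2.6e-04) was below the size threshold. All genes on chromosome 5 had a median of -0.21 in rho0 against TM6, and after subtracting it Cdk6 differed by -0.38, which is below the size threshold. In the same way the PKO-1 difference from rho0 of 0.61 became 0.29.

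Cdkn1b (chr6:134920401-134925525, plus strand), the p27 gene, was highest in PKO-1. Normalized counts were 2404, 2572 and 2737 in TM6, 2012, 2003 and 2054 in rho0, 3700, 3791 and 3769 in PKO-1, and 2299, 2112 and 2405 in PKO-6. The PKO-1 libraries were above all others, and PKO-6 overlapped TM6. Cdkn1b rose by 0.55 ± 0.057 in PKO-1 (adjusted p = 1.7e-06). In rho0 it differed from TM6 by -0.35 ± 0.058 (adjusted p = 1.1e-04), below the size threshold, and in PKO-6 by -0.18 ± 0.058 (adjusted p = 0.014). PKO-1 exceeded PKO-6 by 0.72 ± 0.058 (adjusted p = 1.3e-07) and rho0 by 0.89 ± 0.058 (adjusted p = 1.8e-08). The call in PKO-1 against TM6 was lost without TM6 replicate 1, at 0.47, and after subtracting the chromosome 6 median, at 0.33.

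Cdkn2a (chr4:89274473-89294619, minus strand) gives rise to 2 unrelated proteins from separate first exons: p16INK4a, an INK4 inhibitor, and p19ARF, which binds MDM2 and so stabilises p53. The sum over both transcripts fell in PKO-6, by 0.64 ± 0.12 (adjusted p = 3.3e-04), and differed from TM6 by -0.44 ± 0.12 in rho0 (adjusted p = 0.0054) and by -0.29 ± 0.12 in PKO-1 (adjusted p = 0.050). Those last differences were below the thresholds, but the rho0 difference passed them without TM6 replicate 3, at -0.50, or without rho0 replicate 1, at -0.59. Subtracting the chromosome 4 median also moved the rho0 difference past the size threshold, to -0.59, with no new test. Normalized counts of the sum were 13873, 13402 and 11884 in TM6, 11417, 8645 and 8887 in rho0, 10367, 11109 and 10576 in PKO-1, and 8589, 9735 and 6881 in PKO-6. All libraries of the derived lines were below the lowest TM6 library. The promoters at the start sites of the transcripts, shown because the transcripts differed between lines in different ways, are 300 bases long (250 before and 50 after the start; RefSeq, GRCm38.p6), and capitals mark E2F letters (TTTCCCGC, TTTCGCGC, TTTGCCGC or TTTGGCGC) and GC boxes (GGGCGG), on either strand.
Cdkn2a p19ARF start, chr4:89294570-89294869, minus strand: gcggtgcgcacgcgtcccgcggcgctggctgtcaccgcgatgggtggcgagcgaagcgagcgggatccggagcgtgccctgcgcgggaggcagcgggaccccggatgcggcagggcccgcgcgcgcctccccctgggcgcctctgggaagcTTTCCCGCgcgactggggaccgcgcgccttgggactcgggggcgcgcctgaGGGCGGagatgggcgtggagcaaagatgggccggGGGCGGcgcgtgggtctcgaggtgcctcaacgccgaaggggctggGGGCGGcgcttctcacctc
Cdkn2a p16INK4a start, chr4:89282143-89282442, minus strand: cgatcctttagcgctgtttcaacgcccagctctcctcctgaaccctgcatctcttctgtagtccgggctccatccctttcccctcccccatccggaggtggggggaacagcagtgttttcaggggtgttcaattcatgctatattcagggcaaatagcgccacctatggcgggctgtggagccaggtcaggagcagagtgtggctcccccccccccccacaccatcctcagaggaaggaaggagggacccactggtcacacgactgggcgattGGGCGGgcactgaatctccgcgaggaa
The p19ARF promoter held 1 E2F match, 99 bases before the start, and 3 GC boxes, with 77% G and C and 45 CpG dinucleotides. The p16INK4a promoter held 0 E2F matches and 1 GC box, with 60.3% G and C and 12 CpG dinucleotides. Of 32851 promoters of this length, 2.26% held an E2F match and 35.7% a GC box. A match is a description of letters and not a site of binding.

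The Cdkn2a transcripts were then taken apart, and p19ARF (NM_009877.2) was the one called lower in rho0 and PKO-6. Its level was 425, 414 and 381 TPM in TM6, 263, 242 and 249 TPM in rho0, 336, 335 and 345 TPM in PKO-1, and 216, 235 and 206 TPM in PKO-6. The p16INK4a transcript (NM_001040654.1) was at 155, 142 and 121 TPM in TM6, 171, 139 and 134 TPM in rho0, 77.4, 88.3 and 92.6 TPM in PKO-1, and 124, 138 and 96.7 TPM in PKO-6. For p19ARF the lines did not overlap with one another, whereas for p16INK4a only PKO-1 lay apart, below the other lines. In a test over 20259 RefSeq transcripts that was added after these values were seen, p19ARF fell by 0.65 ± 0.11 in rho0 (adjusted p = 4.0e-04) and by 0.81 ± 0.11 in PKO-6 (adjusted p = 8.6e-05). In PKO-1 p19ARF differed by -0.19 ± 0.11 (adjusted p = 0.17). The p16INK4a transcript differed by 0.14 ± 0.19 in rho0 (adjusted p = 0.59), by -0.62 ± 0.20 in PKO-1 (adjusted p = 0.023) and by -0.13 ± 0.19 in PKO-6 (adjusted p = 0.63), and was not called, although in PKO-1 it was called without PKO-6 replicate 3 (adjusted p = 0.0093). In that test 31.5% of all transcripts were called in rho0, 25.3% in PKO-1 and 31.2% in PKO-6, in either direction. The share of Cdkn2a given by p19ARF was 74.6% ± 1.32 (SD, n = 3) in TM6, 63.1% ± 2.21 in rho0, 79.8% ± 1.34 in PKO-1 and 64.9% ± 2.77 in PKO-6. Both transcripts share their last exons, so the split is an estimate by RSEM whose own error is not in the values.

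**Figure D3:**
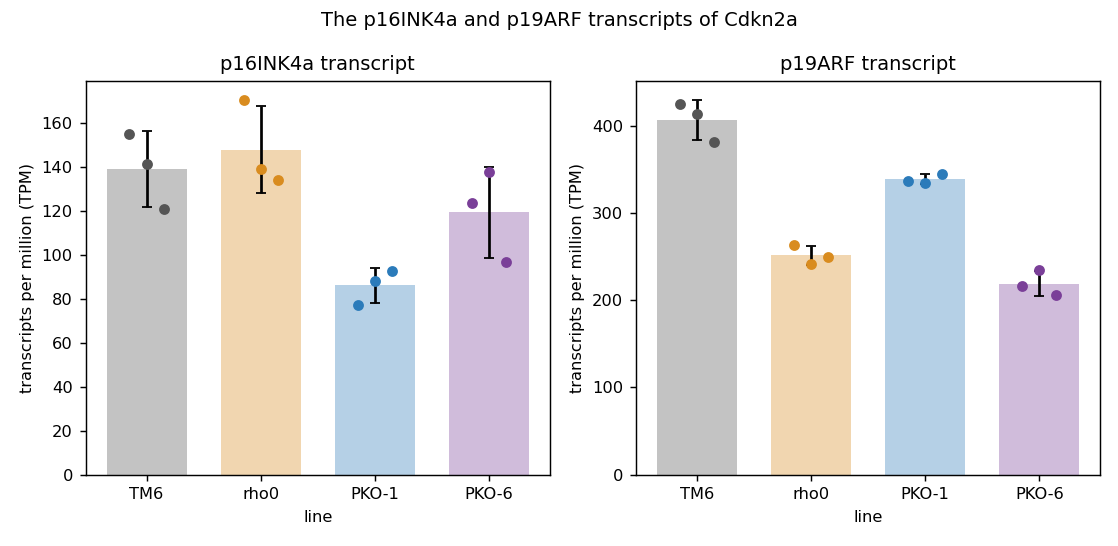
Level in TPM (y axis, from 0) of the p16INK4a and p19ARF transcripts of Cdkn2a (panels) in the 4 lines (x axis); bars are means of 3 libraries, error bars the SD and points single libraries. The p19ARF transcript is lower in rho0 and PKO-6 (206 to 263 TPM) than in TM6 (381 to 425 TPM), while the p16INK4a transcript is lowest in PKO-1 (77.4 to 92.6 TPM).

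Cdkn2b (chr4:89306289-89311032, minus strand), which lies beside Cdkn2a and encodes p15INK4b, a TGF-beta responsive inhibitor, was lower in both PKO clones. Normalized counts were 2120, 2134 and 2135 in TM6, 1552, 1466 and 1541 in rho0, 1219, 1233 and 1255 in PKO-1, and 1504, 1562 and 1393 in PKO-6. TM6 lay above all other libraries and PKO-1 below all others, with rho0 and PKO-6 overlapping between them. The gene fell by 0.79 ± 0.052 in PKO-1 (adjusted p = 1.5e-08) and by 0.52 ± 0.051 in PKO-6 (adjusted p = 6.4e-07). The rho0 difference of -0.49 ± 0.051 (adjusted p = 1.3e-06) missed the size threshold by little and reached it, at -0.51 to -0.52, without TM6 replicate 1, rho0 replicate 1, rho0 replicate 3, PKO-6 replicate 1 or PKO-6 replicate 2. It also reached it with only the libraries of rho0 and TM6 in the fit (-0.51), without Rn45s (-0.51) and after subtracting the chromosome 4 median (-0.64). The PKO-6 call was lost without PKO-6 replicate 3, at -0.47. Gm12610 spans Cdkn2b and had 40.1 to 156 normalized counts.

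Cdkn2c and Cdkn2d, which encode p18INK4c and p19INK4d, gave the largest decreases of the 10 genes. Their promoters are printed because both genes were low in the same lines; capitals mark GC boxes, on either strand.
Cdkn2c start, chr4:109666707-109667006, minus strand: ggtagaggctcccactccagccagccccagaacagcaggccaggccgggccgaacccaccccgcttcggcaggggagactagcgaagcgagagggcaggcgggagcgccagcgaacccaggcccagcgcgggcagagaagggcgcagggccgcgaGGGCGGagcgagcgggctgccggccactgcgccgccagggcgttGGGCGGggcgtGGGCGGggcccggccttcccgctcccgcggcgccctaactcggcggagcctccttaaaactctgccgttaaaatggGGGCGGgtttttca
Cdkn2d start, chr9:21291160-21291459, minus strand: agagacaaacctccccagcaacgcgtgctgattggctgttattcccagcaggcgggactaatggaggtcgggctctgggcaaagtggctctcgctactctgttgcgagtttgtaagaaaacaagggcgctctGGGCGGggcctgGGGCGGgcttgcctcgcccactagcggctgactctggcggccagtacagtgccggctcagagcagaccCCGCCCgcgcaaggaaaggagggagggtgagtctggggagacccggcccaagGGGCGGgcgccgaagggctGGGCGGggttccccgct
The Cdkn2c promoter printed here held 4 GC boxes and that of Cdkn2d held 5, and neither held an E2F match. Both had 0 matches to the TATA box (TATAAA, in 13.6% of all promoters), and the Cdkn2d promoter had 1 CCAAT box (CCAAT, in 37.4%). The promoter at the start of the shorter Cdkn2c transcript NM_007671.3 (chr4:109665323-109665622, not printed) held 0 GC boxes, 0 E2F matches, 1 CCAAT box and 1 E-box (CACGTG, in 7.15%), with 44% G and C against 73.3% in the promoter printed.

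Cdkn2c (chr4:109660876-109666756, minus strand) had normalized counts of 3917, 3778 and 3850 in TM6 and of 4156, 4232 and 4271 in PKO-1. In rho0 the counts were 1900, 1592 and 1692, and in PKO-6 they were 1675, 1832 and 1549. The libraries thus fell into a high pair of lines and a low pair, with rho0 and PKO-6 overlapping. Cdkn2c fell by 1.15 ± 0.069 in rho0 (adjusted p = 4.2e-09) and by 1.19 ± 0.069 in PKO-6 (adjusted p = 2.4e-09), to 0.449 and 0.438 of the TM6 level. PKO-1 differed from TM6 by 0.13 ± 0.067 (adjusted p = 0.099) and exceeded PKO-6 by 1.32 ± 0.069 (adjusted p = 1.7e-09). Both Cdkn2c transcripts were called lower in rho0 (NM_001301368.1 by -1.17 ± 0.092, NM_007671.3 by -0.94 ± 0.18) and in PKO-6 (-1.18 ± 0.092 and -1.12 ± 0.18). In PKO-1 the shorter transcript NM_007671.3, at 12.6 TPM in TM6 and 20.5 TPM in PKO-1, was called higher at 0.77 ± 0.18 (adjusted p = 0.0045), a call that was lost without TM6 replicate 1 (adjusted p = 0.026), without TM6 replicate 2 (adjusted p = 0.021), and without any one of PKO-1 replicate 1 (adjusted p = 0.017), PKO-1 replicate 2 (adjusted p = 0.011) and PKO-1 replicate 3 (adjusted p = 0.021).

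Cdkn2d (chr9:21288464-21291209, minus strand) showed the same split. Its normalized counts were 1168, 1072 and 979 in TM6 and 913, 899 and 865 in PKO-1, against 461, 363 and 396 in rho0 and 310, 366 and 301 in PKO-6. No library of rho0 or PKO-6 reached the lowest of TM6 or PKO-1. Cdkn2d fell by 1.40 ± 0.10 in rho0 (adjusted p = 3.5e-08) and by 1.72 ± 0.10 in PKO-6 (adjusted p = 3.9e-09), to 0.380 and 0.303 of the TM6 level. The PKO-1 difference from TM6 was -0.27 ± 0.099 (adjusted p = 0.030), and PKO-1 exceeded PKO-6 by 1.46 ± 0.10 (adjusted p = 4.3e-08). Genes on chromosome 9 had a median of -0.39 in PKO-1 against TM6 and -0.37 against PKO-6; after subtracting these, Cdkn2d differed by 0.12 from TM6 and by 1.82 from PKO-6. The summed fibroblast markers moved with both genes, being higher in TM6 and PKO-1 (6998 to 7511 TPM) than in rho0 and PKO-6 (3480 to 4214 TPM). Vim and S100a4 gave the largest parts of that sum in TM6 and PKO-1. In the order TM6, rho0, PKO-1 and PKO-6, mean Vim was 2300, 1520, 2090 and 1233 TPM. Mean S100a4 was 2253, 582, 2643 and 730 TPM. The single markers moved in both directions. Of 12 tested, 9 were called lower and 1 higher (Fn1, fibronectin, at 1.07) in rho0, beside 21.4% and 20.7% of all genes. In PKO-6, 7 were lower and 3 higher (Fn1 at 0.88, Dcn at 2.52 and Fbln2 at 0.84), beside 19.4% and 21.9%, and in PKO-1, 3 were lower (Col1a1, Pdgfrb and Col5a1) and 6 higher, beside 17.9% and 16.4%. Their part in the result was not tested.

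**Figure D4:**
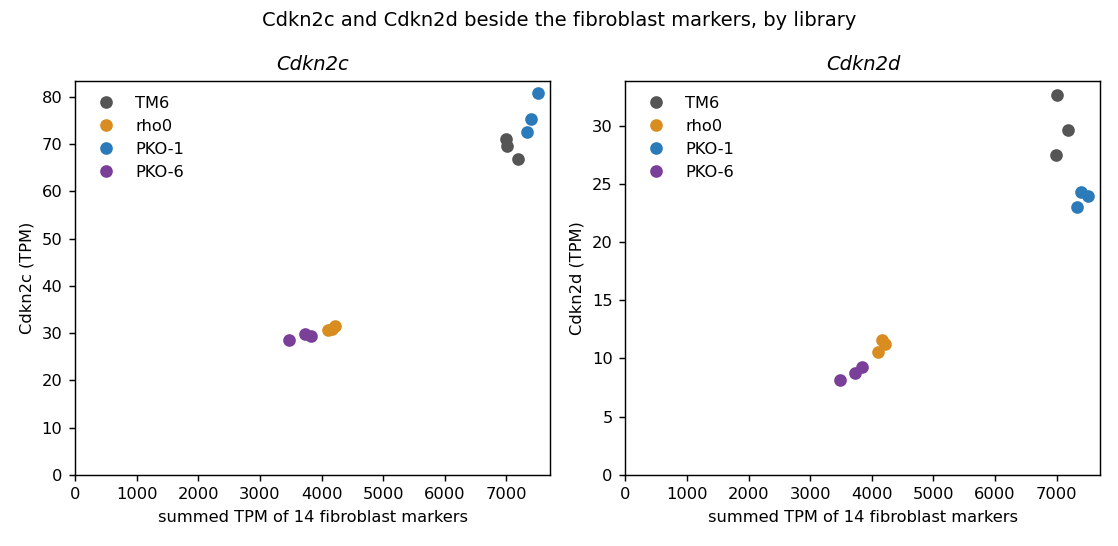
Level of Cdkn2c and Cdkn2d in TPM (y axes) against the summed level of 14 fibroblast markers in TPM (x axes), both from 0, with 1 point per library coloured by line. The 6 libraries of TM6 and PKO-1 lie at the upper right (6998 to 7511 TPM of markers) and the 6 of rho0 and PKO-6 at the lower left (3480 to 4214 TPM of markers).

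To compare levels between genes, TPM values were summed within each class: in all derived lines the D cyclin sum lay above TM6 and the INK4 sum below it. Summed over the 3 D cyclins, the level was 299.5 ± 1.16 TPM (SD, n = 3) in TM6, 315.6 ± 2.82 in rho0, 435.5 ± 8.38 in PKO-1 and 393.8 ± 13.5 in PKO-6, so that the libraries of the 4 lines did not overlap. Cyclin D3 was the most abundant D cyclin transcript in TM6, with 41.0% ± 1.72 of the sum, and the least abundant in the others, with 23.2% ± 1.52 in rho0, 26.3% ± 0.265 in PKO-1 and 18.3% ± 1.59 in PKO-6. Cyclin D2 gave 22.3% ± 0.870 in TM6, 39.4% ± 0.986 in rho0, 29.0% ± 0.136 in PKO-1 and 37.3% ± 1.57 in PKO-6. Cdk4 made up 96.1% to 97.3% of the summed Cdk4 and Cdk6 level in the means of all lines, and that sum was 673.8 ± 8.57 TPM in TM6, 594.7 ± 12.9 in rho0, 601.9 ± 11.4 in PKO-1 and 653.3 ± 15.5 in PKO-6. Transcripts of the INK4 class (p16INK4a, Cdkn2b, Cdkn2c and Cdkn2d) summed to 291.6 ± 18.4 TPM in TM6, 227.4 ± 17.8 in rho0, 215.7 ± 11.6 in PKO-1 and 193.1 ± 20.2 in PKO-6, all derived libraries lying below TM6. With per-length values (RPKM) on TMM-scaled library sizes in place of TPM, the highest rho0 library (159.8 RPKM) reached the lowest TM6 library (159.7 RPKM) for this sum, and the Cdk4 and Cdk6 sum of PKO-6 was 397.9 ± 31.1 RPKM against 394.7 ± 5.33 in TM6, the opposite direction to TPM. The p16INK4a transcript gave 47.6% ± 3.01 of the INK4 sum in TM6, 64.8% ± 3.54 in rho0, 39.9% ± 2.09 in PKO-1 and 61.5% ± 4.57 in PKO-6. Sums and shares are given as a description, with no test.

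**Figure D5:**
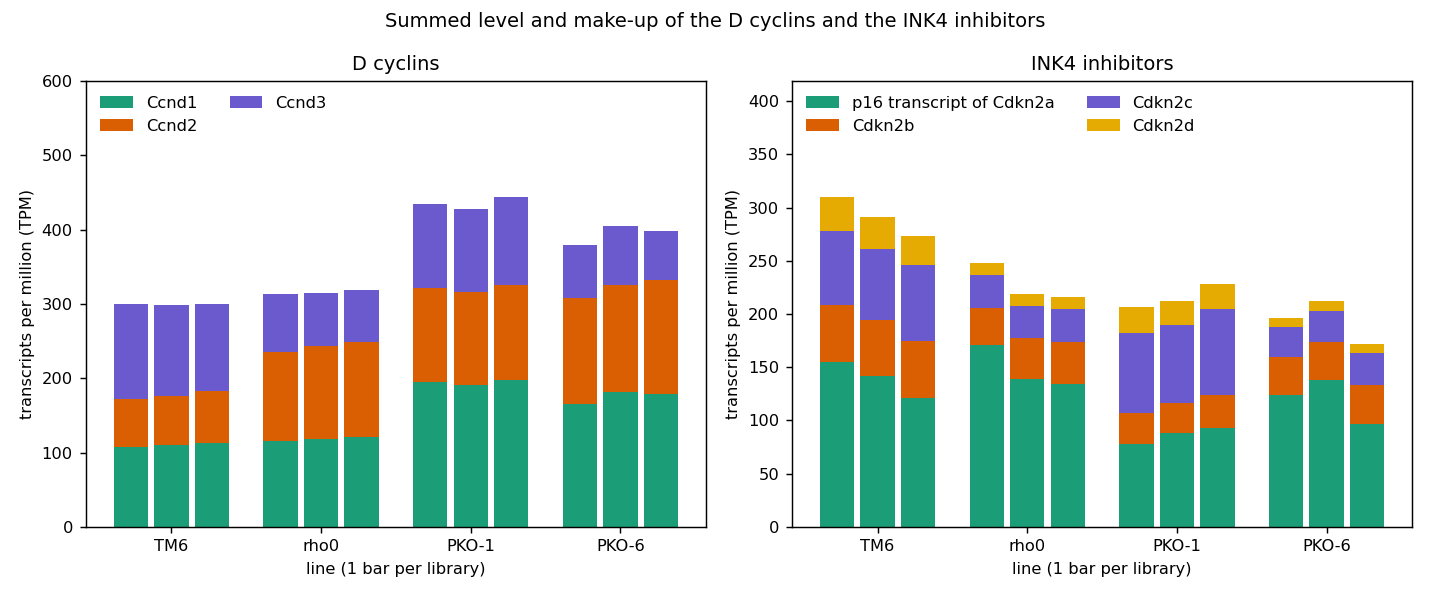
Summed level in TPM (y axes, from 0) of the D cyclins and of the INK4 inhibitors, 1 bar per library grouped by line (x axes), with colours for the genes. The D cyclin sum is about 300 TPM in TM6 (298.2 to 300.5 TPM) and highest in PKO-1 (427.9 to 444.5 TPM), and the INK4 sum is highest in TM6 (273.4 to 310.3 TPM).

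The derived lines were also compared with one another. PKO-1 had more mRNA than rho0 for 6 of 10 genes (Ccnd1, Ccnd3, Cdk6, Cdkn1b, Cdkn2c and Cdkn2d), where 15.1% of all genes were called higher, and 0 of 10 were called lower by edgeR or DESeq2, where 17.6% of all genes were (1 of 10, Cdkn2b, had an unadjusted p below 0.05). The largest of these were Cdkn2c at 1.29 ± 0.069 (adjusted p = 2.6e-09) and Cdkn2d at 1.13 ± 0.10 (adjusted p = 5.0e-07). In PKO-6 against rho0, 1 of 10 was called higher (Ccnd1), beside 13.3% of all genes, while Ccnd2 at 0.27 and Cdk6 at 0.28 passed the adjusted p and not the size threshold (4 of 10, these and Cdkn1b, had an unadjusted p below 0.05). In the same comparison 0 of 10 were called lower by edgeR or DESeq2, beside 8.15% (1 of 10, Cdkn2d, had an unadjusted p below 0.05). PKO-1 exceeded PKO-6 in 4 of 10 genes (Ccnd3, Cdkn1b, Cdkn2c and Cdkn2d), beside 11.5% of all genes, and 0 of 10 were called lower by edgeR or DESeq2, beside 17.6% (2 of 10, Ccnd2 and Cdkn2b, had an unadjusted p below 0.05). With both PKO clones pooled as 1 group against TM6, 2 of 10 were higher (Ccnd1 at 0.81 ± 0.075 and Ccnd2 at 1.09 ± 0.076), beside 13.5% of all genes, and 1 of 10 was lower (Cdkn2b at -0.65 ± 0.083), beside 12.2%. Cdkn2c at -0.38 ± 0.33 (adjusted p = 0.37) and Cdkn2d at -0.82 ± 0.37 (adjusted p = 0.085) were not called there, since the gap between the clones counts as spread in that fit.

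The genes whose pattern was most like that of a G1 gene were found by Pearson's r of log2 CPM, counts scaled to the library size, over the 12 libraries, among the 11204 genes whose normalized counts averaged 100 or more. The libraries of a line share their clone, so r is a description. They are given for the 4 genes called in the most comparisons, with ties in the order of the list. For Ccnd1 they were Tctn2 (r = 0.990), Slc39a14 (r = 0.987) and Errfi1 (r = 0.985), and for Ccnd2 they were Esyt2 (r = 0.998), Qpct (r = 0.997) and Ttc9 (r = 0.996). For Ccnd3 they were Tspan9 (r = 0.993), Tm9sf1 (r = 0.992) and Aprt (r = 0.991). For Cdkn2c they were Tesk2 (r = 0.996), the collagen gene Col6a2 (r = 0.995) and Sec31a (r = 0.995). The number of genes with r above 0.95 was 215 for Cdkn2c, 237 for Ccnd2 and 251 for Cdkn2d, so such values are common among 4 lines.

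The other genes of the pathway are given by lists, in the order rho0, PKO-1 and PKO-6 against TM6, in which 20.7%, 16.4% and 21.9% of all tested genes were called higher and 21.4%, 17.9% and 19.4% lower, with a median of 0.018, 0.00086 and 0.014. Of the 7 genes around CDK2, 1, 1 and 1 rose and 3, 2 and 3 fell, with a median of -0.36, -0.016 and -0.44. The gene that rose was Cdkn1a, which encodes the CDK inhibitor p21, at 2.14, 2.24 and 3.31, and its mean normalized count was 941 ± 68.8 (SD, n = 3) in TM6, 4159 ± 337 in rho0, 4431 ± 85.9 in PKO-1 and 9331 ± 524 in PKO-6. Cdk2, the kinase that follows CDK4 and CDK6, fell by 0.66, 0.70 and 0.93. Among 4 genes listed with ARF, 2, 3 and 2 rose and 0 fell, with a median of 0.55, 0.51 and 0.68. Cdkn1a is counted in this list as well, as 1 of the genes that rose in each comparison. This list had Mdm2, the ubiquitin ligase of p53, at 0.27 (not called), 0.52 and 1.19 and Trp53 at 0.28, -0.13 and 0.03 (not called).

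Of 13 RB and E2F genes, 1, 2 and 2 rose and 3, 2 and 5 fell, with a median of -0.18, -0.031 and -0.35. Rb1 rose in all of these comparisons, by 0.67, 0.58 and 0.78, whereas the repressive E2f7 fell by 0.83, 0.67 and 0.52. Of 18 E2F target genes of the G1/S transition, 1, 0 and 0 rose and 4, 2 and 8 fell, with a median of -0.32, -0.10 and -0.45. The number that fell was near the share of all genes in rho0 (21.4%), under it in PKO-1 (17.9%) and over it in PKO-6 (19.4%). Mcm5, a subunit of the replicative helicase, fell by 0.72, 0.75 and 1.32 and Mybl2 fell by 0.76, 1.31 and 0.97. The list was mixed, and Mcm2 went the other way. Its mean normalized count was 18442 in TM6, 27587 in rho0, 22642 in PKO-1 and 19626 in PKO-6. Of 12 genes for the degradation of D cyclins and p27, 1, 0 and 2 rose and 4, 2 and 5 fell, with a median of -0.12, -0.083 and -0.049. Skp2, the F-box protein that marks p27 for degradation, fell by 1.19, 0.64 and 0.89. Of 6 genes for the assembly and activation of CDKs, 1, 1 and 0 rose and 0 fell, with a median of 0.09, 0.067 and 0.11.

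Of 13 Polycomb genes, whose complexes silence the Cdkn2a and Cdkn2b locus in young fibroblasts, 2, 3 and 4 rose, beside 20.7%, 16.4% and 21.9% of all genes. Called lower were 0, beside 21.4%, 17.9% and 19.4% of all genes, and the median was 0.22, 0.30 and 0.30. Ezh2, the methyltransferase, was at 0.45 (not called), 0.84 and 0.30 (not called). Of 19 tested transcription factors known to act on these genes, 2, 4 and 5 rose and 8, 6 and 6 fell, beside the same shares. Their median was -0.32, -0.066 and 0.0070. Fosl1, an AP-1 subunit, rose by 1.29, 1.33 and 1.76, Id3 fell by 0.96, 0.59 and 1.14, and Id2 was at -1.78, 0.22 (not called) and -2.36. Junb, also an AP-1 subunit, went the other way to Fosl1. Its mean normalized count was 3037 in TM6, 1238 in rho0, 1820 in PKO-1 and 1481 in PKO-6. Within 1 Mb of Cdkn2a and Cdkn2b, 14 of 42 genes were tested, of which 1, 1 and 3 rose and 2, 2 and 2 fell, beside the same shares. Their median was -0.13, -0.20 and 0.052. Among them Hacd4, a fatty acid elongation enzyme, fell by 3.04, 3.75 and 2.68, and Mtap, a methionine salvage enzyme gene, was at -0.50, -0.03 (not called) and -0.25 (not called).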

How the data were processed

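RNA-Seq libraries of 4 MEF lines (3 cultures each) were compared. Per the labels and the study's methods, the authors aligned reads to RefSeq transcripts (mm10/GRCm38) with RSEM 1.2.25 and bowtie2 and deposited expected counts per gene. They also deposited expected counts, TPM and the percent of the gene that each transcript makes up, as RSEM estimated them. Technical duplicate libraries were merged by the authors. Gene symbols that start with mt- gave 0 rows, and mitochondrially encoded genes under other names were not looked for.

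Expected counts were rounded, and 12.5% of them had decimals. Genes with enough counts (filterByExpr, minimum count 10) were normalized by TMM and tested with edgeR 4.0.16 (quasi-likelihood, Benjamini-Hochberg, R 4.3.3) in 1 fit of the 4 lines; the pooled PKO comparison used a fit of 3 groups. Normalized counts are counts divided by TMM-scaled library size and multiplied by the mean of those sizes. Standard errors are the size of the fold change over the square root of F, and 95% intervals follow from them by the normal distribution. Such intervals are narrower than the quasi-likelihood F test implies. For Cdk4 in PKO-6 against rho0 the interval was 0.0081 to 0.32, while the unadjusted p of that test was 0.059. TPM is the sum over the authors' transcripts. Scripts were tested on simulated data. Promoters come from RefSeq (8 of 10 genes matched, 11 promoters) and were searched on both strands.

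The 10 genes, the pathway lists and the markers were chosen with earlier results of these data known. All 10 genes are named, with at most 4 examples per list. Cultures of 1 clone are the replicates, so p-values measure the spread between cultures. Alternatives were another normalization, DESeq2 1.42.0, no filter, a replicate block, 2 groups only, other thresholds, other grouping, Rn45s left out, chromosome medians subtracted and each library left out. Subtracting chromosome medians shifted the fold change and kept the adjusted p of the unshifted test. The values of 1 listed gene are not reported here.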

Additional observations from a re-analysis of the deposited data

Results flagged for a closer look

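Between the PKO clones, 4 of the 10 genes differed by edgeR's test of PKO-1 against PKO-6, where 29.1% of all tested genes were called. That comparison tests whether the effect against TM6 differs between the clones. The difference, as log2 of PKO-1 over PKO-6, was 0.67 for Ccnd3, 0.72 for Cdkn1b, 1.32 for Cdkn2c and 1.46 for Cdkn2d. Against rho0, PKO-6 differed by 0.01 for Ccnd3, 0.17 for Cdkn1b, -0.04 for Cdkn2c and -0.33 for Cdkn2d, none of which was called. Groups of 3 libraries were not screened for outlying libraries.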

How the results depend on the processing

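Of 1560 recomputed values for 70 results (10 genes in 7 comparisons), 1472 kept their direction and their side of the thresholds, 28 lost a call, 23 gained one and 37 changed sign, all of the last being uncalled and small. The numbers of genes called were 5 in rho0, 4 in PKO-1, 7 in PKO-6 and 3 in the pooled PKO group against TM6, and 6 in PKO-1 and 1 in PKO-6 against rho0, and 4 between the PKO clones. With a log2 threshold of 1 they were 2, 0, 3, 1, 2, 0 and 2, and with adjusted p alone they were 8 in rho0, 3 in PKO-6 against rho0 and 7 between the clones. Pooling the clones left 2 in rho0 (Ccnd3, Cdkn2c and Cdkn2d lost their calls), and the mean of 2 clones in the fit of 4 lines gave 5 for PKO. Leaving out a library gave 5 to 7 in rho0, 3 to 4 in PKO-1 and 6 to 7 in PKO-6.

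The share of all tested genes called fell with the threshold of 1 from 42.1% to 20.99% (rho0), 34.3% to 16.2% (PKO-1), 41.3% to 21.7% (PKO-6), 25.7% to 12.7% (PKO), 32.7% to 15.7% (PKO-1 against rho0), 21.5% to 10.8% (PKO-6 against rho0) and 29.1% to 13.9% (PKO-1 against PKO-6). With adjusted p alone it was 54.3% (PKO-1), 53.9% (PKO-1 against rho0), 40.7% (PKO-6 against rho0) and 50.0% (PKO-1 against PKO-6).

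With lengths and TMM in place of TPM, the D cyclin sum relative to TM6 was 1.07 in rho0, 1.52 in PKO-1 and 1.37 in PKO-6, and the Cdk4 and Cdk6 sum was 0.937 in PKO-1 and 1.01 in PKO-6. Sign changes with chromosome medians subtracted were -0.013 for Ccnd1 (rho0), -0.0084 for Ccnd2 (PKO-1 against rho0), -0.076 for Cdk6 (PKO-1) and 0.12 for Cdkn2d (PKO-1). For Cdk4 they were 0.038 (rho0), 0.069 (PKO-1), 0.021 (PKO), -0.018 (PKO-6 against rho0) and 0.063 (PKO-1 against PKO-6). Cdk6 in PKO-1 was -0.010 with DESeq2's size factors, -0.0090 with DESeq2, -0.0058 without a filter, -0.0097 with 2 groups and -0.017 without Rn45s. Cdk4 in PKO-6 was -0.0037 with 2 groups and -0.0071 without Rn45s, and Ccnd3 in PKO-6 against rho0 was -0.0017 without Rn45s. Leave-one-out ranges that crossed 0 were -0.052 to 0.051 for Cdk6 (PKO-1), -0.069 to 0.093 for Cdk4 (PKO-6), -0.022 to 0.11 for Cdk4 (PKO-1 against rho0), and, in PKO-6 against rho0, -0.11 to 0.13 for Ccnd3, -0.081 to 0.015 for Cdkn2b and -0.11 to 0.023 for Cdkn2c. For the p16INK4a transcript NM_001040654.1 of Cdkn2a they were -0.051 to 0.21 (rho0) and -0.30 to 0.052 (PKO-6). The cause was not tested.

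With the replicate number as a block, the genes called were 5 in rho0, 4 in PKO-1 and 7 in PKO-6 against TM6, the same numbers as without it. The labels do not say that a number marks shared cultures. Deviations of log2 CPM from the mean of each line were correlated between libraries of different lines. By this measure 4 of 12 libraries correlated best with a library of their own number, so the numbers were not taken to pair the samples.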
